A study of Mus musculus with 5 samples.

Results

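A set of 7 genes of the ROR and thyroid hormone pathways was followed in RNA pulled down with tagged ribosomes from dentate gyrus and cerebral cortex of adult mice. They are Rora, Rorb, Thra, Thrb, Crym, Klf9 and Trhr, taken by symbol from the 32532 genes of the count tables, and all 7 were found and passed the filter on low counts. The mice carried the Rbp4-Cre (KL100) driver and a Cre-dependent EGFP/Rpl10a allele at Rosa26, and received no treatment. Cre under Rbp4 regulatory sequence switches on an EGFP-tagged ribosomal protein, and an antibody against EGFP then pulls down the polysomes of those cells, a method called translating ribosome affinity purification. There were 3 libraries from dentate gyrus and 2 from cerebral cortex, all of them immunopurified fractions from the same cross, and no input or untagged fraction was used here. The labels give neither age in weeks, nor sex, nor whether each replicate is its own animal. The p-values therefore rest on the spread between these libraries, which may be technical.

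RORα and RORβ, the products of Rora and Rorb, are nuclear receptors that bind DNA mostly as monomers and switch genes on, and the REV-ERB receptors compete with them for the same sites. Thyroid hormone receptors α and β, from Thra and Thrb, sit on DNA as heterodimers with retinoid X receptors, recruit corepressors when no hormone is bound and coactivators when it is. Around them work transporters that bring the hormone into cells, deiodinases that activate or degrade it, the cytosolic binding protein mu-crystallin from Crym, and response genes such as Klf9. Trhr encodes a receptor for thyrotropin-releasing hormone, which acts in the brain as a neuropeptide apart from its role in the pituitary. In cortex, Rorb is a widely used marker of layer 4, and Rora is known for high levels in thalamus and in cerebellar Purkinje cells.

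The dissections were checked against defining markers before the members were read. Gene counts summed to 22600963 to 36837908 per library. Prox1, the identity factor of granule cells, ran from 937 to 1123 counts per 1000000 gene counts (CPM) in the dentate gyrus libraries and did not exceed 14.9 CPM in cortex. The layer 5 factor Fezf2 was at 1.79, 60.0 and 17.4 CPM in dentate gyrus replicates 1, 2 and 3, against 355 and 288 CPM in cortex replicates 1 and 2. Of 6 layer 5 markers, 5 were lower in dentate gyrus in the fit given below, at an adjusted p under 0.05. Bcl6 went the other way without passing, with 155, 164 and 170 CPM in dentate gyrus, against 129 and 131 CPM in cortex. Cortex replicate 1 and dentate gyrus replicate 2 stood apart in a few marker genes. They were singled out by these genes and not by a distance over all genes. With 2 cortex libraries, replicate 1 can only be said to differ from replicate 2. In cortex replicate 1 the Purkinje cell genes Car8, Pcp2 and Ppp1r17 reached 414, 19.8 and 35.9 CPM, while cortex replicate 2 had 1.46, 0.125 and 0 CPM. In dentate gyrus replicate 2 the genes Dcn and Dlk1 reached 114 and 83.0 CPM, while replicate 1 had 1.68 and 0.109 CPM and replicate 3 had 10.5 and 12.9 CPM. Both belong to a list of 7 hippocampal CA and subiculum markers, which was split. Among the dentate gyrus libraries, Gpr101 and Wfs1 were also highest in replicate 2, Grik4 was lowest there, and Fibcd1 and Coch were highest in replicate 1. Between the tissues, 1 of the 7 was called higher and 1 lower in dentate gyrus. Results are also given without cortex replicate 1 and dentate gyrus replicate 2. Levels come from bulk RNA, in which fewer cells of a type and less RNA per cell cannot be told apart.

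The members divided by direction. Rora, Rorb and Thrb were lower in dentate gyrus, Thra, Klf9 and Trhr were higher there, and Crym was not called. In an edgeR quasi-likelihood fit of 14136 genes, with Benjamini-Hochberg adjusted p-values, 6 of the 7 members were called at an adjusted p under 0.05, 3 in each direction. Of all tested genes, 21.3% were called, 10.5% as higher and 10.8% as lower in dentate gyrus. The median log2 fold change of the members, dentate gyrus minus cortex, was 0.34, against 0.02 for all tested genes. This median is the value of Crym, which was not called, and the largest changes (Rorb, Rora and Thrb) were downward. The same 6 members had no overlap between the tissues in CPM, as had 50.0% of all tested genes (24.3% with all dentate gyrus libraries higher and 25.8% with all lower).

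**Figure D1:**
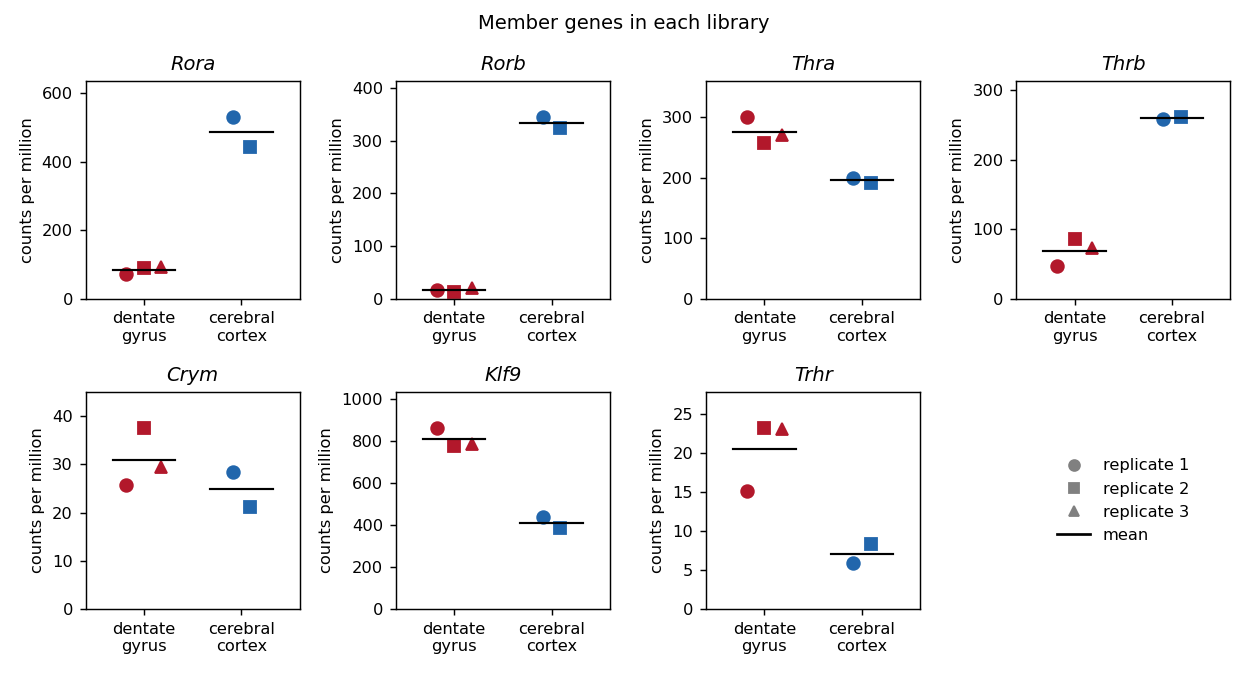
CPM of each member in the 3 dentate gyrus libraries (red, left) and the 2 cerebral cortex libraries (blue, right), with each axis starting at 0. Points are single libraries, symbols mark replicate numbers and lines are means. Crym is the only panel in which the tissues overlap.

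The RORs showed the widest gap. Rorb (ENSMUSG00000036192.15, chromosome 19, 18930605 to 19111196, minus strand, mm10) had 16.0, 13.0 and 20.0 CPM in dentate gyrus replicates 1, 2 and 3, against 344 and 325 CPM in cortex replicates 1 and 2. The dentate gyrus libraries were low together and lay far below both cortex libraries. The log2 fold change was -4.33 (SE 0.20, adjusted p 1.59e-06 by edgeR), or 20.1-fold lower in dentate gyrus. Rora (ENSMUSG00000032238.17, chromosome 9, 68653786 to 69388246, plus strand) had 73.2, 90.7 and 92.1 CPM in dentate gyrus, against 530 and 443 CPM in cortex. All 3 dentate gyrus libraries were below both cortex libraries, of which the library with Purkinje cell genes was the higher. Its log2 fold change was -2.49 (SE 0.15, adjusted p 6.60e-06 by edgeR), or 5.60-fold lower. Without cortex replicate 1 the Rora change was -2.34 (adjusted p 8.46e-05). With both libraries that stood apart left out, Rora was at -2.38 and Rorb at -4.13.

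The thyroid hormone receptor genes moved in opposite directions. Thrb (ENSMUSG00000021779.17, chromosome 14, 17660261 to 18038090, plus strand) had 47.0, 85.4 and 73.5 CPM in dentate gyrus, against 258 and 261 CPM in cortex. The cortex libraries were nearly equal, and among the dentate gyrus libraries replicate 1 was the lowest and replicate 2, with Dcn and Dlk1, the highest. The log2 fold change was -1.89 (SE 0.22, adjusted p 0.000288 by edgeR), or 3.72-fold lower in dentate gyrus, and -2.07 without both libraries that stood apart. Thra (ENSMUSG00000058756.13, chromosome 11, 98740638 to 98769006, plus strand) had 300.1, 258 and 270.2 CPM in dentate gyrus, against 200.0 and 191 CPM in cortex. Every dentate gyrus library was above every cortex library, by a small margin. The log2 fold change was 0.53 (SE 0.14, adjusted p 0.0207 by edgeR), or 1.44-fold higher. This call was lost in several fits with fewer libraries. The adjusted p was 0.0621 without dentate gyrus replicate 1, 0.0564 without dentate gyrus replicate 3, 0.0696 with cortex replicate 1 left out, 0.149 with cortex replicate 2 left out and 0.0867 with both libraries that stood apart left out, with the direction kept each time. Over all alternatives it ran from 0.00204 to 0.149. Of the Thra exon bases, 263 (5.7%) lie within exons of Nr1d1 on the opposite strand, and the strand setting of the counting is not given, so reads from there cannot be assigned. Counts per symbol do not separate the hormone-binding α1 form from the α2 form, which does not bind the hormone.

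Klf9, a zinc finger transcription factor gene induced by thyroid hormone and by glucocorticoids, had the highest level per exon length of all members in both tissues. It had 860 CPM, 777 CPM and 784 CPM in dentate gyrus replicates 1, 2 and 3, against 438 and 384 CPM in cortex (ENSMUSG00000033863.2, chromosome 19, 23141226 to 23168134, plus strand). The dentate gyrus libraries were tightly grouped and all above both cortex libraries. The log2 fold change was 1.0 (SE 0.12, adjusted p 0.000286 by edgeR), or 2.0-fold higher, and 1.15 without both libraries that stood apart.

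Trhr and Crym were the members with the fewest reads over both tissues together, although in dentate gyrus alone Rorb had the fewest, with 1398 counts. Trhr (ENSMUSG00000038760.14, chromosome 15, 44196135 to 44235912, plus strand) had 15.1, 23.2 and 23.1 CPM in dentate gyrus, against 5.88 and 8.39 CPM in cortex, from 557, 524 and 592 counts against 205 and 201 counts. Dentate gyrus replicate 1 was the lowest of its group and still above both cortex libraries. The log2 fold change was 1.55 (SE 0.40, adjusted p 0.0210 by edgeR), or 2.93-fold higher. The adjusted p was 0.0561 without dentate gyrus replicate 2, 0.0633 without dentate gyrus replicate 3, 0.124 with cortex replicate 1 left out, 0.0547 with cortex replicate 2 left out and 0.230 with both libraries that stood apart left out, and it ran from 0.00103 to 0.230 over all alternatives. Crym (ENSMUSG00000030905.5, chromosome 7, 120186380 to 120202111, minus strand) had 25.7, 37.5 and 29.4 CPM in dentate gyrus, against 28.4 and 21.2 CPM in cortex. Dentate gyrus replicate 2 was the highest, and the tissues overlapped. The log2 fold change was 0.34 with a 95% interval of -0.32 to 0.99 (adjusted p 0.480 by edgeR), so a change of up to nearly the size of that in Klf9 lay within the interval.

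**Figure D2:**
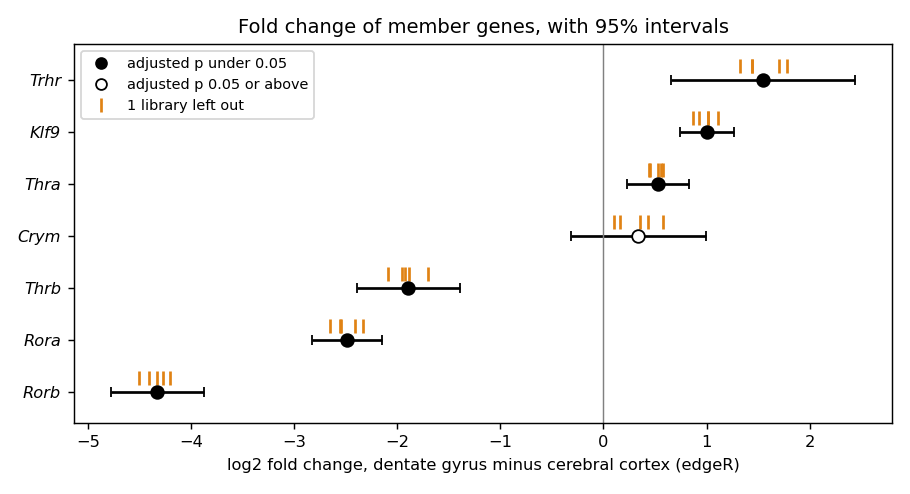
Log2 fold change of each member, dentate gyrus minus cerebral cortex, from edgeR, with 95% intervals as bars. Filled points passed an adjusted p of 0.05, the open point (Crym, 0.34) did not, and orange ticks are the values with 1 library left out. Every tick lies on the same side of 0 as its point.

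Promoter sequence was read for the members with an entry. RefSeq windows on GRCm38.p6, from 250 bases before to 50 bases after an annotated start, were matched by symbol for 4 of the 7 members, namely Rora, Rorb, Thrb and Klf9. Thra, Crym and Trhr had no entry. Each sequence below reads 5′ to 3′ on the gene's own strand, and capitals mark AGGTCA, the hexamer bound by most nuclear receptors, or CACCC, the core of Krüppel-like factor sites, on either strand. They are shown because 3 of them belong to genes that were lower together in dentate gyrus and 1 to a gene that was higher.
Rora (chr9:68653536-68653835, plus strand): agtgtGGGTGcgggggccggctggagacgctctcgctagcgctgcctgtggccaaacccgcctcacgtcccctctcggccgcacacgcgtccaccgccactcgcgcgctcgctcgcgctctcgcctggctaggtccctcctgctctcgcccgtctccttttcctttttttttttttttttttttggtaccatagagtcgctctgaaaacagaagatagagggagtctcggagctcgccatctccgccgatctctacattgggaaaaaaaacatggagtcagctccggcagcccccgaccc
Rorb, upstream start (chr19:19111147-19111446, minus strand): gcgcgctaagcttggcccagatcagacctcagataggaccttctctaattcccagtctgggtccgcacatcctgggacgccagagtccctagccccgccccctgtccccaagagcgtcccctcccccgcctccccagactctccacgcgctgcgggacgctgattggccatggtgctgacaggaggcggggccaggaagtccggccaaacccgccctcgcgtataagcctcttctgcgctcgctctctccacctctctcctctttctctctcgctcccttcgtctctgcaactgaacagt
Thrb, upstream start (chr14:17660710-17661009, plus strand): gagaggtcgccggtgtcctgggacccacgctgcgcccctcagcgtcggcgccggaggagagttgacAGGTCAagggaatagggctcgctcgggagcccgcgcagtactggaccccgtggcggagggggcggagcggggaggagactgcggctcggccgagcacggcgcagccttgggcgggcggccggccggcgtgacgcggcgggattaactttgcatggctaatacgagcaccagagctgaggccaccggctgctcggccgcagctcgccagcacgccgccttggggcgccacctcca
Klf9 (chr19:23140976-23141275, plus strand): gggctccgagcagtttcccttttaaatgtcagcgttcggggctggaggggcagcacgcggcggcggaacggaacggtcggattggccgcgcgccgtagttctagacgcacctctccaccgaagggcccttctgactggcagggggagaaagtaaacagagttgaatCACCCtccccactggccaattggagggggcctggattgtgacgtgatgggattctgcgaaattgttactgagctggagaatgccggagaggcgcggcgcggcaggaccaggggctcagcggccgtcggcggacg

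Of the 6 member windows, which include a second start each for Rorb and Thrb, AGGTCA on either strand occurred in 1, the upstream Thrb window, starting 184 bases before the start site. Of all 32851 windows of this length, 16.3% held it. A direct repeat of the hexamer with 4 bases between occurred in none of the 6, against 0.0152% of all windows. The ROR element was searched as AANT followed directly by AGGTCA or by GGGTCA, the first of which contains the hexamer. It occurred in none of the 6 either, against 0.219% and 0.216% of all windows. CACCC occurred in 3 of the 6 (Rora, the downstream Rorb start and Klf9), against 57.5% of all windows. In Klf9 it began 84 bases before the start site. These are matches of letters in 300-base windows and do not show binding.

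Levels were compared between genes only per exon length, in transcripts per 1000000 (TPM) computed with exon lengths from GENCODE M21. In dentate gyrus, Klf9 led with 864 to 965 TPM, followed by Thra with 299.6 to 351 TPM. Thrb (34.3 to 61.8 TPM) and Crym (41.0 to 59.2 TPM) came next and overlapped with each other. Rora (30.2 to 38.5 TPM) lay below every Crym value but overlapped with Thrb, Trhr had 20.4 to 31.5 TPM and overlapped with Rora, and Rorb was lowest with 6.29 to 9.86 TPM. In cortex, Klf9 again led with 420 and 469 TPM, and Thra followed with 218 and 224 TPM. Rora had 179 and 209 TPM and Thrb 180 and 186 TPM there, so these neighbours overlapped. Rorb had 154 and 160 TPM, Crym 32.9 and 43.2 TPM and Trhr 7.58 and 11.0 TPM.

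The balance within each receptor pair was also read as a ratio within libraries. The ratio of Thra to Thrb in TPM was 10.2, 4.85 and 5.90 in dentate gyrus replicates 1, 2 and 3, against 1.24 and 1.17 in cortex. By transcript level the genes were near parity in both cortex libraries, and Thra exceeded Thrb several-fold in each dentate gyrus library. The Thra level pools the α1 and α2 forms, so this is not a ratio of hormone-binding receptors. The ratio of Rora to Rorb was 3.87, 5.91 and 3.90 in dentate gyrus, against 1.30 and 1.16 in cortex. For both ratios the tissues did not overlap. An exact permutation test, whose two-sided p doubles the one-sided p, gave p = 0.2. That is the smallest value such doubling allows with 3 against 2 libraries. A ratio within a library does not depend on the scaling between libraries, but it does depend on the exon lengths used.

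**Figure D3:**
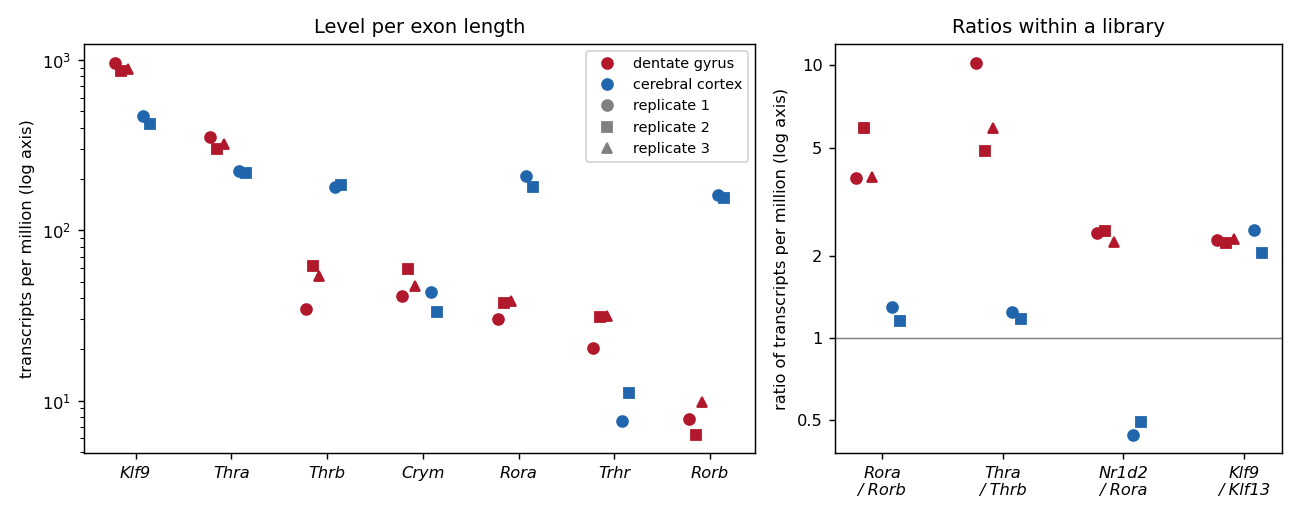
Left, TPM of each member on a log axis, ordered by the dentate gyrus mean, with dentate gyrus libraries in red and cortex libraries in blue. Right, ratios of these values within each library on a log axis with a line at 1. Ratios of Thra to Thrb were 4.85 to 10.2 in dentate gyrus and 1.17 and 1.24 in cortex, while Klf9 to Klf13 overlapped.

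Other genes of the same pathways were read from 9 lists of 72 genes, of which 65 were tested and 25 called, 10 as higher and 15 as lower in dentate gyrus. Of all 14136 tested genes, 21.3% were called, 10.5% as higher and 10.8% as lower. These shares are the background for each list count below, and each list holds few genes. Up to 4 called genes per list were named by a fixed rule. Nr1d1, Nr1d2, Rxra, Dio2, Nrgn, Trh, Ppargc1a, Klf7, Reln and Plcb1 fall outside it, as do the marker genes, and were chosen after their values were seen. Without cortex replicate 1 the count was 16, and without both libraries that stood apart it was 14.

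In the list of ROR and REV-ERB partners and clock targets, 1 of 9 tested genes was called, and it was lower in dentate gyrus (list median -0.68). Npas2, a clock transcription factor gene of forebrain, had 28.0, 41.5 and 27.9 CPM in dentate gyrus, against 98.9 and 121 CPM in cortex (log2 -1.73, SE 0.24, adjusted p 0.000685 by edgeR). The REV-ERB gene Nr1d2 had 73.4, 92.5 and 86.1 CPM in dentate gyrus, against 97.0 and 90.6 CPM in cortex, a log2 fold change of -0.13 with a 95% interval of -0.54 to 0.27. Its ratio to Rora in TPM was 2.42, 2.46 and 2.26 in dentate gyrus, against 0.442 and 0.494 in cortex. The same exact permutation test gave a two-sided p of 0.2, again the smallest it can give in this form. Nr1d2 thus exceeded Rora in TPM in all dentate gyrus libraries and not in either cortex library. Nr1d2 itself was not called, so the ratio mainly restates the difference in Rora. The other REV-ERB gene, Nr1d1, had 71.6, 54.8 and 48.6 TPM in dentate gyrus, against 86.9 and 98.6 TPM in cortex. It was not called either (log2 -0.69, adjusted p 0.0806 by edgeR).

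Of the 3 retinoid X receptor genes, Rxrg was lower in dentate gyrus, with 0, 0.442 and 0.0779 CPM against 4.13 and 4.88 CPM in cortex. Its log2 fold change was -4.70 (SE 1.43, adjusted p 0.0426 by edgeR), and the adjusted p was 0.0950 without dentate gyrus replicate 3, 0.136 with cortex replicate 1 left out, 0.167 with cortex replicate 2 left out and 0.0774 with both libraries that stood apart left out. Rxra averaged 14.6 ± 1.90 CPM in dentate gyrus (SD, n = 3) and 20.4 ± 0.922 CPM in cortex (SD, n = 2). Its edgeR adjusted p was 0.386.

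Most hormone supply genes were not called. Of 7 transporter genes, all tested, 1 was called (list median -0.02). Slc7a8, an amino acid transporter that also carries thyroid hormone, had 28.2, 51.1 and 58.9 CPM in dentate gyrus, against 119.5 and 94.7 CPM in cortex (log2 -1.19, SE 0.29, adjusted p 0.0160 by edgeR). Its adjusted p was 0.120 without cortex replicate 1 and 0.152 without both libraries that stood apart. Of the deiodinase genes, 0 of 2 tested were called by edgeR, with 1 at an unadjusted p under 0.05, while 1 was called as lower by DESeq2, by limma voom, and by edgeR with no filter, with the stricter filter or without dentate gyrus replicate 2. Dio2, which makes the active hormone and is known mainly from astrocytes, had 3.75, 10.6 and 3.08 CPM in dentate gyrus, against 18.9 and 17.9 CPM in cortex (adjusted p 0.0625, unadjusted p 0.0146).

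Most coactivator genes were higher in dentate gyrus. Of 9 coactivator genes, 6 were higher and 1 was lower there (list median 0.57, against 0.02 for all tested genes). Ncoa1, a p160 coactivator, averaged 529 ± 31.1 CPM in dentate gyrus, against 337 ± 29.5 CPM in cortex (log2 0.68, SE 0.12, adjusted p 0.00306 by edgeR). Ncoa2, of the same family, rose by 0.59 (SE 0.12) on the log2 scale. The Mediator subunit gene Med1 and the histone acetyltransferase gene Crebbp had log2 fold changes of 0.72 (SE 0.14) and 0.63 (SE 0.13). The count of coactivators higher in dentate gyrus was 4 with either cortex library left out and 1 without both libraries that stood apart. Of those named, the Ncoa2 adjusted p was 0.0658 without cortex replicate 1 and that of Crebbp 0.0601 without cortex replicate 2, while Ncoa1, Ncoa2 and Med1 were at 0.0725, 0.114 and 0.0842 without both libraries that stood apart. Ppargc1a, a coactivator gene of energy metabolism and named outside the rule as the list member called lower, had 232, 346 and 191 CPM in dentate gyrus, against 495 and 445 CPM in cortex, and its adjusted p of 0.0189 became 0.107 without cortex replicate 1. Of 7 corepressor genes, 1 was higher and 1 lower (list median 0.23). Ncor1, the corepressor bound by hormone-free receptors, averaged 1038 ± 80.8 CPM in dentate gyrus, against 596 ± 15.8 CPM in cortex (log2 0.83, SE 0.11, adjusted p 0.000541). Tbl1x, which encodes a subunit of the same complex, was at 9.18, 13.5 and 14.8 CPM in dentate gyrus, against 56.2 and 61.3 CPM in cortex (log2 -2.21, SE 0.28, adjusted p 0.000486).

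Of 11 tested genes reported as responsive to thyroid hormone in rodent brain, 5 were lower and 0 higher in dentate gyrus by edgeR (list median -1.94). The list was not split by whether the hormone raises or lowers each gene, so this count and median do not measure hormone action. None of the 11 was higher at an unadjusted p under 0.05, by DESeq2 or by limma voom. In fits without a single library the count that was lower ran from 3 to 6, and it was 3 without both libraries that stood apart. Camk4, a calcium-dependent kinase gene, averaged 112 ± 8.17 CPM in dentate gyrus, against 607 ± 2.31 CPM in cortex, a log2 fold change of -2.41 (SE 0.12). Homer1, a postsynaptic scaffold gene, averaged 201 ± 3.71 CPM in dentate gyrus, against 791 ± 84.3 CPM in cortex. The neurofilament gene Nefh had 28.3, 25.1 and 25.2 CPM in dentate gyrus, against 155 and 160 CPM in cortex. Stard4, a sterol transfer gene, had 0.814, 1.02 and 1.87 CPM in dentate gyrus, against 9.06 and 10.9 CPM in cortex, and its adjusted p of 0.00927 became 0.0759 without cortex replicate 2 and 0.0885 without both libraries that stood apart. Nrgn, a postsynaptic calmodulin-binding protein gene and a long-known hormone target in rat brain, was at 573, 443 and 425 CPM in dentate gyrus, against 429 and 450 CPM in cortex, with overlap. The fifth called gene, Reln, an extracellular glycoprotein gene, had 17.9, 8.54 and 19.9 CPM in dentate gyrus, against 38.9 and 35.4 CPM in cortex. Its adjusted p of 0.0409 was 0.0587 without dentate gyrus replicate 2, 0.173 with cortex replicate 1 left out, 0.109 with cortex replicate 2 left out and 0.231 without both libraries that stood apart. Klf9, also known as a hormone-responsive gene, was higher.

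Krüppel-like factor genes also split. Of 11 tested, 2 were higher and 3 lower in dentate gyrus. Klf13, the closest relative of Klf9, averaged 555 ± 30.2 CPM in dentate gyrus, against 283 ± 12.6 CPM in cortex, a log2 fold change of 1.0 (SE 0.12, adjusted p 0.000283 by edgeR). Its value was nearly that of Klf9, and the ratio of Klf9 to Klf13 in TPM was 2.28, 2.24 and 2.30 in dentate gyrus and 2.50 and 2.06 in cortex, with overlap. Klf3 was also higher (log2 1.19, SE 0.17). Klf6 (log2 -1.85, SE 0.28) and Klf10 (log2 -1.12, SE 0.34), both known as early response genes, were lower. The Klf10 adjusted p of 0.0425 was 0.0709 to 0.192 with 1 library left out, except where that was dentate gyrus replicate 3, and 0.316 without both libraries that stood apart. Klf7, named outside the rule, was lower with an adjusted p of 0.0457. That value was 0.0722 to 0.250 with 1 library left out, except where that was dentate gyrus replicate 1, and 0.146 without both libraries that stood apart.

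Around the thyrotropin-releasing hormone receptor, 1 of 6 tested genes was higher and 2 were lower. Trhde, which encodes the enzyme that degrades the peptide, had 21.0, 17.3 and 16.7 CPM in dentate gyrus, against 58.5 and 69.8 CPM in cortex (log2 -1.78, SE 0.24, adjusted p 0.000726 by edgeR). The receptor and this enzyme thus went in opposite directions. Trh, the peptide precursor gene, was at 0.136, 0.177 and 0 CPM in dentate gyrus, against 3.24 and 0.125 CPM in cortex, and it did not pass the filter. Among the effectors of a Gq-coupled receptor, the G protein gene Gnaq was higher (log2 0.47, SE 0.12, adjusted p 0.0175). The phospholipase gene Plcb4 was lower, with 16.1, 20.7 and 22.4 CPM in dentate gyrus against 194 and 201 CPM in cortex. Plcb1, a phospholipase gene with more reads in both tissues, averaged 664 CPM in dentate gyrus, against 791 CPM in cortex. It was not called (log2 -0.22, adjusted p 0.154 by edgeR). The Gnaq adjusted p was 0.0634 without dentate gyrus replicate 3, 0.122 with cortex replicate 1 left out, 0.0533 with cortex replicate 2 left out and 0.121 without both libraries that stood apart.

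**Figure D4:**
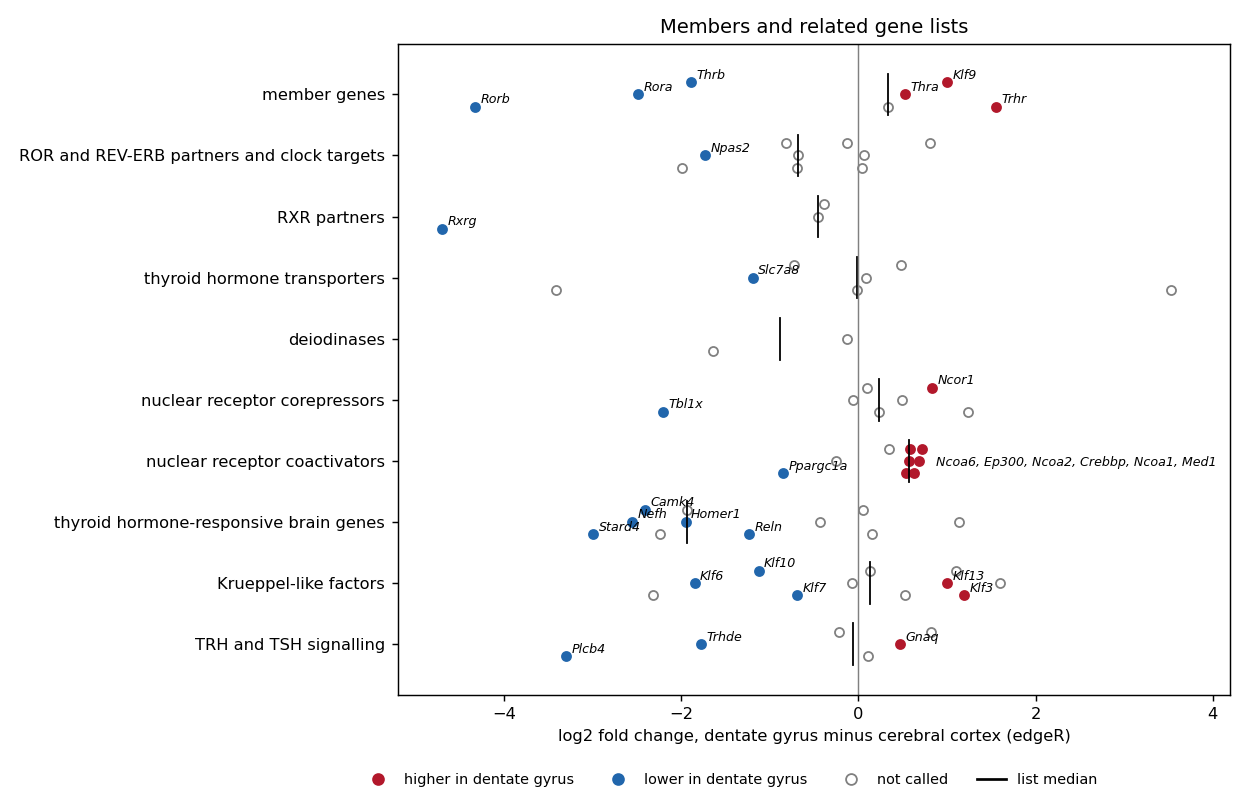
Log2 fold change of every tested gene in the member list and the 9 related lists, dentate gyrus minus cerebral cortex, from edgeR. Red and blue points passed an adjusted p of 0.05 as higher and lower in dentate gyrus and are named, open points did not pass, and black lines are list medians. The median was 0.57 for coactivators and -1.94 for hormone-responsive genes, and both lists also held genes on the other side of 0.

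Markers of other cells differed between the tissues in both directions. Of 7 interneuron markers, 4 were called lower and 1 higher in dentate gyrus. Their summed level was 184 to 215 CPM in dentate gyrus, against 899 and 901 CPM in cortex, and most of the cortex sum was Sst, with 704 and 652 CPM. Gad1, which encodes a GABA-synthesizing enzyme, was the marker called higher, with 70.5, 57.0 and 64.4 CPM in dentate gyrus, against 26.7 and 41.7 CPM in cortex (log2 0.93, adjusted p 0.0276 by edgeR).

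Of 6 astrocyte markers, 2 were called lower. They summed to 613 to 749 CPM in dentate gyrus, against 1011 and 1063 CPM in cortex, most of it from Slc1a2. Aldh1l1 was at 0.0814, 0 and 0.0779 CPM in dentate gyrus, against 3.87 and 12.8 CPM in cortex. Aqp4 and Gfap had higher means in dentate gyrus and were not called, with log2 fold changes of 0.61 and 1.55 and adjusted p-values of 0.376 and 0.404. The 5 markers of layers 2 to 4 had 3 called lower and 1 higher, and summed to 153 to 180 CPM in dentate gyrus, against 291 and 231 CPM in cortex. Calb1, which granule cells also express, was the higher one and made up most of the dentate gyrus sum, with 135, 156 and 136 CPM there, against 84.8 and 37.2 CPM in cortex (log2 1.24, adjusted p 0.0168 by edgeR). Cux2 was at 0.434, 0.929 and 0.506 CPM in dentate gyrus, against 14.9 and 19.9 CPM in cortex. The 6 thalamic markers summed to 2.74, 28.0 and 26.1 CPM in dentate gyrus, against 47.3 and 44.9 CPM in cortex, and 0 of 5 tested were called. Most of the cortex sum was Slc17a6, with 40.1 and 29.3 CPM. Most of the sum in dentate gyrus replicate 3 was Tcf7l2, with 15.8 CPM. Tcf7l2, Prkcd and Lef1 had higher means in dentate gyrus, Slc17a6 and Rgs16 lower ones. Of the 6 thalamic markers, Gbx2 was at 0 in all libraries and Prkcd was at or below 3.19 CPM. The 5 oligodendrocyte markers, of which 1 was called lower, summed to 72.2, 47.9 and 112 CPM in dentate gyrus, against 102 and 182 CPM in cortex, with overlap. The part of these cells in the levels of Rora, Rorb and Thrb was not tested.

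Genes of most like pattern were found by the root mean square difference of log2 CPM, each gene centred on its own mean over the 5 libraries, among genes with a mean of at least 10 CPM. With 5 libraries in 2 groups, many genes have a close pattern, so these are descriptions. For Rora the nearest were Scn1a, Dlc1 and Aldoc, at 0.08, 0.09 and 0.09 log2 units. For Rorb they were S100b, Ptn and Tyro3, at 0.24, 0.29 and 0.34. Thrb was nearest to Zfp462, Krt222 and Klf6, at 0.09, 0.09 and 0.12. Those nearest to Thra were Sec16a, Tmcc2 and Emc3, at 0.02, 0.04 and 0.05. Klf9 lay closest to Ncald, Kcnj3 and Mkl2, at 0.04, 0.04 and 0.05. Trhr was followed by AK051008, Ddx51 and Mtrr, at 0.11, 0.14 and 0.14, and Crym by Vbp1, Smn1 and Hook3, at 0.05, 0.06 and 0.06.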

How the data were processed

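The authors deposited a table of raw counts for each library, with a symbol on each row. STAR 2.0.0e and HTSeq on mm10 made them, per the submitters' processing notes. The annotation, the strand setting and the HTSeq version were not given in the sources used here. The classes of reads assigned to no gene stayed out of all totals: reads without a feature were 10.59% to 14.83% of counted reads, non-unique reads 25.03% to 31.76% and ambiguous reads 1.81% to 1.87%.

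CPM is counts per 1000000 gene counts. TPM used union exon lengths from GENCODE M21 (GRCm38, the build of mm10), matched by symbol for 71.0% of genes and 95.4% of gene counts. Dentate gyrus was compared with cortex by edgeR 4.0.16 in R 4.3.3 (TMM scaling, filterByExpr, quasi-likelihood F test, no covariate) with Benjamini-Hochberg adjustment over 14136 genes. All adjusted p-values come from this test unless stated. Fold changes are log2 with a standard error (SE). Errors on levels are SD. Scripts were tested on simulated counts. Libraries of a tissue differed by more than counting noise (chi-square per degree of freedom 40.2 to 55.8), so none was treated as the same library deposited more than once. Repeat preparations of 1 sample are not told apart by this.

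Named genes were all 7 members, up to 4 called genes per list with the smallest adjusted p, the 3 genes of most like pattern to each member (leaving out predicted, microRNA and snoRNA symbols), and few others given by value only. Members and lists were chosen with earlier results of these data known. Alternatives were 2 scalings, 2 filters, a replicate block, robust dispersion, DESeq2 1.42.0, limma voom (limma 3.58.1), each library left out, and the 2 libraries that stood apart left out together. Figures used matplotlib 3.10.9.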

Additional observations from a re-analysis of the deposited data

How the results depend on the processing

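The 7 members kept their direction under all alternatives, and Rora, Rorb, Thrb and Klf9 stayed called in each. Thra and Trhr were lost with a replicate block, at log2 0.54 (adjusted p 0.0539) and 1.45 (adjusted p 0.0545), and without both libraries that stood apart, at 0.62 and 1.23. The block also ended the calls of Gnaq, Rxrg and Klf7, at adjusted p 0.0754, 0.0976 and 0.150. With 1 library left out, the log2 change ran from 0.44 to 0.57 for Thra and from 1.33 to 1.78 for Trhr, and 4 to 5 members were called. The block called 4 members. The labels do not say whether replicate numbers pair the libraries. The difference of cortex replicates 1 and 2 had a correlation of -0.008 with that of dentate gyrus replicates 1 and 2. It was taken over 12628 genes that are not independent. This value cannot decide the pairing, because cortex replicate 1 and dentate gyrus replicate 2 each stood apart in genes of their own. Over all genes, 3009 were called, 1886 to 2775 with 1 library left out, 1578 without both libraries that stood apart and 2237 with the block. Of the related genes, 25 were called, 16 to 26 with 1 library left out and 14 without both libraries that stood apart. Where an arm was left with 1 library, its spread was assumed to be that of the other tissue. The causes were not tested. Other scalings moved the median log2 change of all genes by less than 0.1. Genes near the filter, such as Rxrg, have wide errors at this depth.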
